A study of Mus musculus with 12 samples.

Results

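Inflammatory caspases and the effectors of lytic cell death were followed in primary mouse oligodendrocyte precursor cells (OPCs), the proliferating glia from which myelinating oligodendrocytes arise. The group was fixed by name as 9 genes, *Casp1*, *Casp4*, *Casp8*, *Casp12*, *Gsdmd*, *Mlkl*, *Ripk3*, *Zbp1* and *Nlrp3*, out of 45563 gene symbols with 1 entry each, and all 9 symbols were listed in both tables, some at 0 in single NS libraries. RNA was sequenced from 12 libraries in 4 groups of 3. WT NS and WT St cells came from wild-type pups labelled C57BL/6 (C57BL/6J in the study's methods), and TNFR2-/- NS and TNFR2-/- St cells from pups with a germline loss of TNFR2, also labelled C57BL/6. Pups were 2 to 5 days old by the labels and 3 to 5 by the study's methods. All cells were drawn from cortex with beads against PDGFRα, kept 3 days in vitro in medium with PDGF-AA and FGF2, and exposed for 3 h to TNF, IFNγ and IL1β at 25 ng/mL each (St) or to PBS (NS). The libraries carried the numbers 2, 3 and 4 in WT and 2, 4 and 5 in TNFR2-/-, with each number once in NS and once in St. The labels do not say what a number stands for, so p-values measure the spread between these libraries.

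Pyroptosis and necroptosis, both forms of lytic death, meet in this group of genes. In pyroptosis, a sensor such as NLRP3 assembles an inflammasome that activates caspase-1, or caspase-4 senses bacterial lipopolysaccharide directly, and the caspase then cleaves gasdermin D into a fragment that opens pores in the plasma membrane. In necroptosis, the kinase RIPK3 is engaged by RIPK1 or by the nucleic acid sensor ZBP1 and phosphorylates MLKL, which breaks the membrane, while caspase-8 holds this route in check and can itself start apoptosis. In the brain these proteins are best known from microglia and infiltrating myeloid cells. Transcript levels are reported here, and cleavage, phosphorylation and cell death were not measured.

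Library totals ranged from 26886878 to 30335265 read pairs. The targeted gene went against its labels, because *Tnfrsf1b*, which encodes TNFR2, counted 12 to 24 reads in WT NS, 213 to 346 in TNFR2-/- NS, 61 to 145 in WT St and 282 to 356 in TNFR2-/- St libraries. Which part of the gene these reads came from cannot be seen in values per gene, so every difference between genotypes below is one between libraries labelled WT and libraries labelled TNFR2-/-. Markers of OPCs (8 genes) were abundant in all libraries, but their sum was lower with stimulation. It was 8575 to 9953 CPM (reads scaled to a common library total) in WT NS and 7115 to 8194 in WT St. In TNFR2-/- it was 8591 to 9344 in NS and 7484 to 8175 in St. The part of this shift in the results with stimulation was not tested. Single markers did not all follow the sum. With stimulation, 1 of the 8 was higher in WT (*Sox10*, 5188 to 6390 reads in NS and 7904 to 10755 in St) and 2 in TNFR2-/-. *Pdgfra* had 13735 to 18109 reads in WT St and 8000 to 11932 in TNFR2-/- St libraries, while 4 of the 8 were higher in TNFR2-/- St. The 15 microglial markers summed to 460 to 658 reads in each library, 9 to 11 of the 15 had at most 3 reads in every library of a group, and *Fcrls* was at 0 throughout. Markers of astrocytes (8 genes) moved with genotype, at 1950 to 2239 CPM in WT NS, 1875 to 1948 in WT St, 2801 to 4529 in TNFR2-/- NS and 2852 to 4496 in TNFR2-/- St libraries. In bulk RNA, more cells of a type and more RNA per cell cannot be told apart.

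*Casp1* (ENSMUSG00000025888), *Casp4* (ENSMUSG00000033538) and *Casp12* (ENSMUSG00000025887) lie side by side on the plus strand of mouse chromosome 9 (GRCm38), at 5298517 to 5307265, 5308828 to 5336783 and 5345430 to 5373032, with no other protein-coding gene between them. Their promoter windows from RefSeq (GRCm38.p6) are shown because these neighbors rose together by very different amounts. Each window holds 250 bases before and 50 bases from the annotated start, 5′ to 3′, at chr9:5298267-5298566, chr9:5308599-5308898 (the first of 2 *Casp4* windows) and chr9:5345226-5345525. Capitals mark matches to the NF-κB motif in *Casp4* and to the GAS motif of STAT factors, TTCNNNGAA, in *Casp12*.
Casp1: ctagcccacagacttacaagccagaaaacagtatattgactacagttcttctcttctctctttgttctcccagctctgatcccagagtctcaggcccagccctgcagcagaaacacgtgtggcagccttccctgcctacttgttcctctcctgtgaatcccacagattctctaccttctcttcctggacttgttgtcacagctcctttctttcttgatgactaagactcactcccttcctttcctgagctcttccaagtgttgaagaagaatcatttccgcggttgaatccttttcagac
Casp4: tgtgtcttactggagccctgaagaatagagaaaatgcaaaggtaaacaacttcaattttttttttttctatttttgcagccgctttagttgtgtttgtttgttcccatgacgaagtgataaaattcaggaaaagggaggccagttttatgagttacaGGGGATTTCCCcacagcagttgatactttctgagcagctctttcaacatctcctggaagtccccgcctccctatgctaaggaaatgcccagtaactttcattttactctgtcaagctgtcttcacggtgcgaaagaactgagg
Casp12: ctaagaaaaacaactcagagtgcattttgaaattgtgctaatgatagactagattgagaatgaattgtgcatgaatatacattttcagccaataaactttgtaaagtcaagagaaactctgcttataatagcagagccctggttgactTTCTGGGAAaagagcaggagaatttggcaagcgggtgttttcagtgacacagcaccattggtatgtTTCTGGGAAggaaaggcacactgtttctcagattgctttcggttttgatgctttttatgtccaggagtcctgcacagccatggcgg
Both strands were searched for these motifs and for the interferon-stimulated response element, GAAA and GAAA with any 2 bases between. The *Casp4* window held 2 overlapping NF-κB matches, starting 93 and 92 bases before the start, and 4.505% of all 32851 RefSeq windows of the same length hold at least 1. The *Casp12* window held 2 GAS matches, 102 and 36 bases before its RefSeq start, against a share of 8.298% of windows with at least 1. The second, at 5345440 to 5345448, lies inside the *Casp12* interval given above, so the 2 annotations place the start differently. The *Casp1* window held none of the 3 motifs. The interferon-stimulated response element, found in 3.443% of windows, was absent from the windows of the 7 members that had one. The second of 2 *Nlrp3* windows had 1 NF-κB match, and the windows of *Casp8*, *Mlkl* and *Ripk3* held none of the 3 motifs. The *Casp8* window, at chr1:58802252-58802551, lies inside the annotated gene, which begins at 58795374. These are matches of letters, not sites shown to be bound.

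Most of the group rose with cytokine stimulation in both genotypes. By limma on log2(FPKM + 0.5), calling a gene at a Benjamini-Hochberg adjusted p up to 0.05, a 1.5-fold or wider change and a mean of 1 FPKM or more, 6 of 9 members were higher in WT St than in WT NS (*Casp1*, *Casp4*, *Casp8*, *Casp12*, *Gsdmd* and *Mlkl*), where 4.58% of all 18081 genes tested were called higher. The same 6 were called higher in TNFR2-/- St over TNFR2-/- NS, against 5.41% of all genes. None was called lower. All 9 members were tested, and the other 3 (*Ripk3*, *Zbp1* and *Nlrp3*) had means under 1 FPKM and could not be called. In both genotypes all St libraries lay above all NS libraries for each of the 9 members, a pattern seen in 13.7% of genes in WT and 12.7% in TNFR2-/-. The median log2 fold change of the members was 1.54 in WT and 1.09 in TNFR2-/-, beside -0.05 and -0.11 over all genes tested. The 2 comparisons share no library. The members were chosen with earlier results of these data known, so the shares set beside them are a description.

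**Figure D1:**
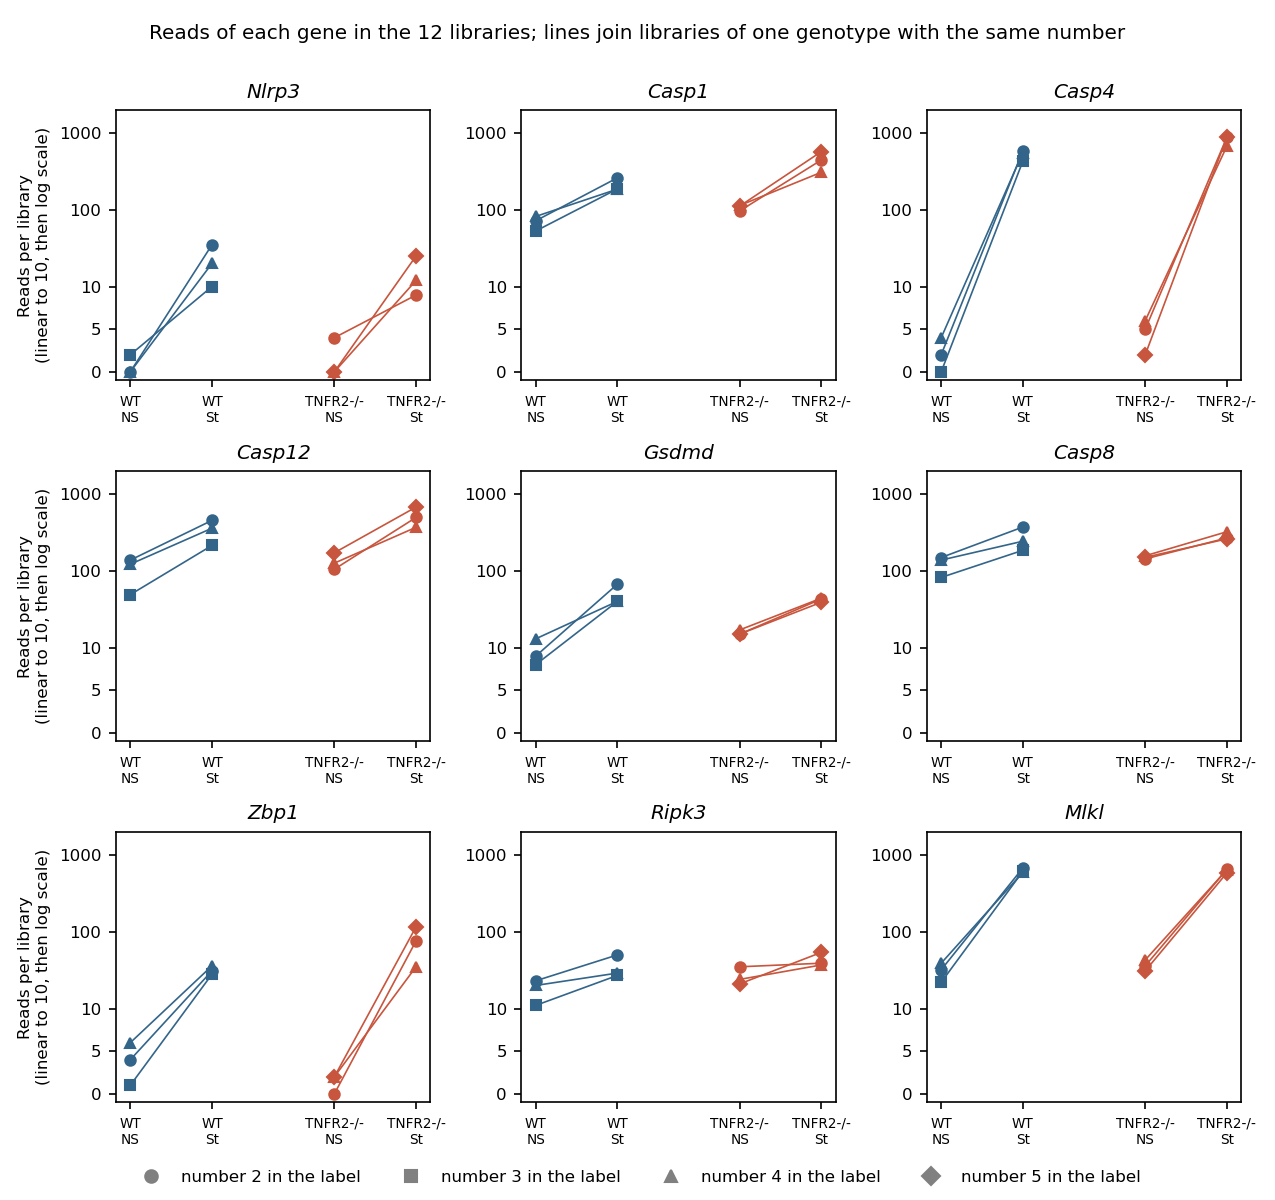
Reads of each of the 9 genes in each of the 12 libraries (vertical axis, linear to 10 reads and logarithmic above), by group, with lines joining the NS and St libraries of 1 genotype that carry the same number. Every line rises, from 0 to 6 reads to 429 to 885 for *Casp4* and from 22 to 43 reads to 586 to 679 for *Mlkl*, while *Ripk3* moves from 11 to 35 reads to 27 to 54.

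The size of some changes depended on the unit. An FPKM of these tables is a read count over the library total and over a number of bases per gene that does not follow the annotated exon length (98 bases for *Casp1*, whose annotated exons cover 1497, and 6257 for *Zbp1*, whose exons cover 3529). The 0.5 FPKM added before the log therefore equalled 1.47 reads for *Casp1* and 1.98 for *Casp4*, but 54.5 for *Mlkl* and 94.0 for *Zbp1*, and it shrinks the fold change of the latter. Whole read counts could be recovered from the deposited values, and a second fit on those counts (limma with voom weights) is given for some of the genes below. Without the FPKM threshold, which was dropped after the values had been seen, that fit called 8 of 9 members higher in each genotype, all but *Ripk3*, against 5.97% of genes in WT and 7.22% in TNFR2-/-. Without WT NS 3 it called 5 in WT, where *Casp8*, *Casp12* and *Zbp1* missed the threshold.

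**Figure D2:**
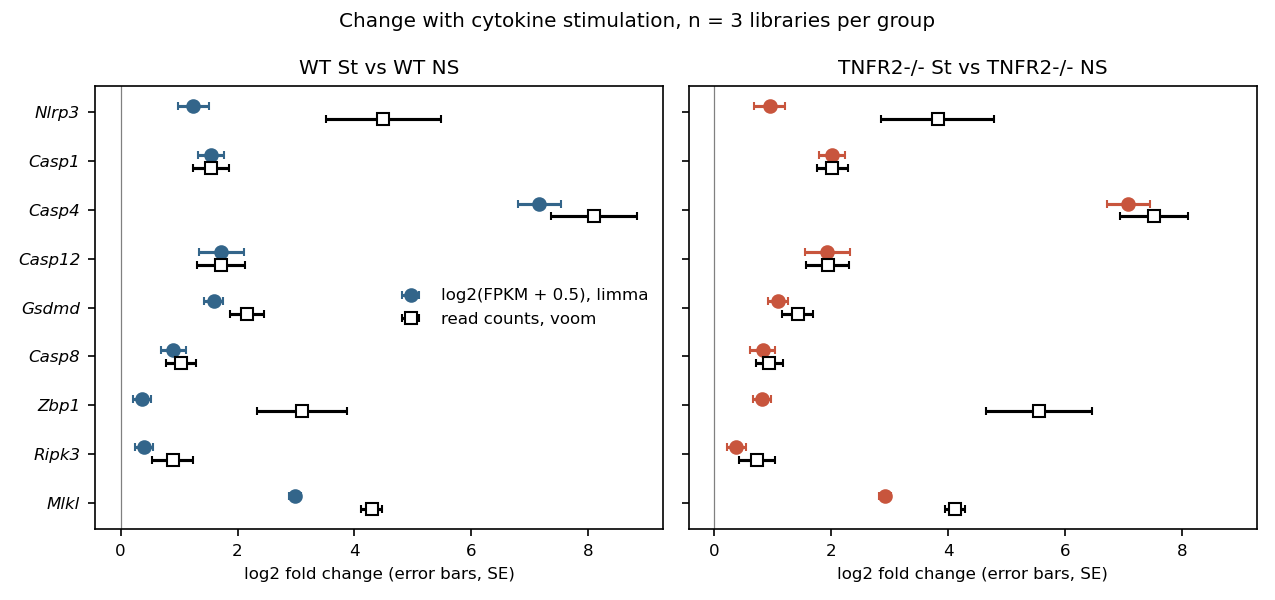
Log2 fold change of each gene with stimulation (horizontal axis, bars SE, n = 3 libraries per group) in WT (left) and TNFR2-/- (right), from log2(FPKM + 0.5) with limma (filled circles) and from read counts with voom (open squares). Both fits place every gene above 0, and they part most for *Nlrp3* (1.25 against 4.50 in WT) and *Zbp1* (0.82 against 5.56 in TNFR2-/-).

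*Nlrp3* (ENSMUSG00000032691, chromosome 11), the inflammasome sensor of potassium efflux and membrane damage, was close to undetected without cytokines. Its reads were 0, 2 and 0 in WT NS libraries 2, 3 and 4 and 4, 0 and 0 in TNFR2-/- NS libraries 2, 4 and 5. With stimulation they were 35, 10 and 20 in WT and 9, 12 and 25 in TNFR2-/-. St and NS libraries did not overlap, but the counts were small in both. Summed over libraries, the ratio of St to NS was 31.3 in WT (exact 95% interval 8.32 to 264) and 11.7 in TNFR2-/- (4.28 to 44.8), intervals that cover counting error only. On the FPKM scale the log2 fold change was 1.25 ± 0.27 (SE, n = 3 per group) in WT (limma adjusted p = 0.00932) and 0.95 ± 0.27 in TNFR2-/- (limma adjusted p = 0.0257). From read counts it was 4.50 ± 0.99 (voom adjusted p = 0.00736) and 3.82 ± 0.97 (voom adjusted p = 0.012), and the latter call was lost without TNFR2-/- NS 4 (voom adjusted p = 0.0509).

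*Casp1*, the caspase that matures IL-1β and IL-18 and cleaves gasdermin D, was transcribed without stimulation and rose in all 6 same-numbered pairs. WT NS libraries held 72, 53 and 82 reads of it, and WT St libraries 261, 187 and 186. In TNFR2-/- it had 97, 114 and 112 reads in NS and 447, 309 and 575 in St libraries. Each pair rose 2.26- to 3.62-fold in WT and 2.71- to 5.43-fold in TNFR2-/-. The fitted log2 fold change was 1.54 ± 0.22 in WT (limma adjusted p = 0.0008) and 2.01 ± 0.22 in TNFR2-/- (limma adjusted p = 9.35e-05).

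*Casp4*, which in mice encodes the lipopolysaccharide sensor also named caspase-11, made the widest move of the group. It went from 2, 0 and 4 reads in WT NS to 585, 429 and 556 in WT St libraries, and from 5, 6 and 2 reads in TNFR2-/- NS to 881, 675 and 885 in TNFR2-/- St libraries. A gene almost silent in unstimulated OPCs thus held at least 429 reads in each stimulated library after 3 h. The log2 fold change was 7.17 ± 0.37 in WT (limma adjusted p = 3.05e-07) and 7.09 ± 0.37 in TNFR2-/- (limma adjusted p = 3.09e-07), and 8.10 and 7.52 from read counts. The summed microglial markers overlapped in WT, at 495 to 606 reads in NS and 530 to 585 in St libraries, and were higher in TNFR2-/- St (578 to 658) than in TNFR2-/- NS libraries (460 to 547), where their part in the result was not tested. As the summed read ratio, *Casp4* was 252 times its NS level in WT (exact 95% interval 116 to 688) and 191 times in TNFR2-/- (112 to 360).

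*Casp12*, a neighbor of *Casp4* linked to stress of the endoplasmic reticulum, began from a higher level and rose far less. In WT its reads were 138, 49 and 122 in NS and 454, 214 and 359 in St libraries, and in TNFR2-/- they were 105, 126 and 172 in NS and 496, 369 and 677 in St libraries. The same-numbered pairs rose 2.93- to 3.91-fold in WT and 2.93- to 4.74-fold in TNFR2-/-. WT libraries numbered 3 were the lowest of the WT libraries in both NS and St. The log2 fold change was 1.72 ± 0.39 in WT (limma adjusted p = 0.0115) and 1.93 ± 0.39 in TNFR2-/- (limma adjusted p = 0.00428). Without WT St 2 the WT change was 1.49 and missed the threshold (limma adjusted p = 0.0505), as it did from read counts without WT NS 3 (1.33, voom adjusted p = 0.0563).

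*Gsdmd* (ENSMUSG00000022575, chromosome 15), the pore former cleaved by caspase-1 and caspase-4, was sparse and rose in both genotypes. WT libraries held 9, 8 and 13 reads in NS and 67, 40 and 40 in St. In TNFR2-/- libraries it had 15, 17 and 15 reads in NS and 43, 44 and 39 in St. The St levels of the genotypes overlapped. The log2 fold change was 1.59 ± 0.17 in WT (limma adjusted p = 7.79e-05) and 1.09 ± 0.17 in TNFR2-/- (limma adjusted p = 0.000852), and 2.16 and 1.42 from read counts. The pairs rose 3.06- to 7.43-fold in WT and 2.59- to 2.87-fold in TNFR2-/-. Both calls depended on the expression threshold. With a mean of 2 CPM required in place of 1 FPKM, *Gsdmd* was called in neither genotype. Its voom adjusted p was still 0.000285 in WT and 0.00211 in TNFR2-/-.

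Of the necroptosis genes, *Mlkl* (ENSMUSG00000012519, chromosome 8), the pseudokinase that permeabilizes the membrane, had the most even response. Its reads went from 32, 22 and 39 in WT NS to 679, 614 and 596 in WT St, and from 36, 43 and 31 in TNFR2-/- NS to 651, 644 and 586 in TNFR2-/- St libraries. The 6 St libraries lay within a narrow range that both genotypes shared. The log2 fold change on the FPKM scale was 2.99 ± 0.10 in WT (limma adjusted p = 1.11e-08) and 2.92 ± 0.10 in TNFR2-/- (limma adjusted p = 1.44e-08). From read counts it was 4.29 ± 0.18 and 4.12 ± 0.17, which is 19.6-fold and 17.4-fold. The gene overlaps a processed pseudogene, *Gm45712*, on the other strand, and whether counting used strand is not given in the sources used here.

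*Ripk3* (ENSMUSG00000022221, chromosome 14), the kinase that phosphorylates MLKL, did not pass the threshold. It had 23, 11 and 20 reads in WT NS, 50, 27 and 29 in WT St, 35, 24 and 21 in TNFR2-/- NS and 39, 37 and 54 in TNFR2-/- St libraries. St lay above NS in all 6 pairs, in TNFR2-/- number 2 by only 39 reads against 35. The summed read ratio was 1.89 in WT (exact 95% interval 1.35 to 2.68) and 1.66 in TNFR2-/- (1.24 to 2.22), intervals that cover counting error only. On the FPKM scale the added 0.5 FPKM equals 32.9 reads of *Ripk3*. The log2 fold change there was 0.40 ± 0.16 in WT (limma adjusted p = 0.135) and 0.37 ± 0.16 in TNFR2-/- (limma adjusted p = 0.12). From read counts it was 0.89 (voom adjusted p = 0.112) and 0.73 (voom adjusted p = 0.107). With each numbered pair as a block in the fit on read counts, added after the values were seen, both passed (voom adjusted p = 0.0249 in WT and 0.0299 in TNFR2-/-).

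*Zbp1* (ENSMUSG00000027514, chromosome 2), the sensor of Z-form nucleic acids that can engage RIPK3, was near zero without cytokines. Its WT libraries held 4, 1 and 6 reads in NS and 31, 28 and 36 in St, and the TNFR2-/- libraries 0, 2 and 2 reads in NS and 76, 35 and 116 in St. Stimulated WT libraries lay close together, whereas the TNFR2-/- St libraries were spread and the lowest of them fell inside the WT St range. The summed read ratio was 8.32 in WT (exact 95% interval 4.45 to 17.2) and 57.9 in TNFR2-/- (22.3 to 214). On the FPKM scale the log2 fold change was 0.36 ± 0.15 in WT (limma adjusted p = 0.151) and 0.82 ± 0.15 in TNFR2-/- (limma adjusted p = 0.003). From read counts it was 3.10 ± 0.78 (voom adjusted p = 0.0157) and 5.56 ± 0.91 (voom adjusted p = 0.000775). The WT call was lost without WT NS 2 (voom adjusted p = 0.0536) or WT NS 3 (voom adjusted p = 0.0677).

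*Casp8* (ENSMUSG00000026029, chromosome 1), the protease that cleaves RIPK1 and RIPK3 and starts apoptosis downstream of death receptors, rose in both genotypes. WT libraries held 149, 82 and 138 reads in NS and 372, 185 and 243 in St. In TNFR2-/- libraries it had 143, 157 and 150 reads in NS and 268, 323 and 261 in St. The WT libraries were more spread than the TNFR2-/- libraries in both conditions. The log2 fold change was 0.90 ± 0.21 in WT (limma adjusted p = 0.0159) and 0.83 ± 0.21 in TNFR2-/- (limma adjusted p = 0.0167). The WT call was lost without WT NS 3 (limma adjusted p = 0.0625) and in a fit of only the 6 WT libraries (0.0648), and the TNFR2-/- call without TNFR2-/- St 4 (limma adjusted p = 0.0593). Of the 2927 stretches of 100 bases in its transcripts, 0.717% also occur in *Gm20257*, and the other 8 members shared none with another gene. *Casp8* also overlaps another annotated gene, *Gm37760*, on the same strand.

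To compare one gene with another, reads were scaled by annotated exon length as RPKM on the annotated exons. In WT NS libraries *Casp1* (1.58 ± 0.256, SD, n = 3), *Casp8* (1.45 ± 0.351) and *Casp12* (0.911 ± 0.384) led the group, and these neighbors in the order overlapped. *Mlkl* (0.461 ± 0.105) and *Ripk3* (0.268 ± 0.0804) followed, with *Gsdmd* at 0.145 ± 0.0328 and *Zbp1*, *Casp4* and *Nlrp3* at 0.0350 or less. After stimulation *Mlkl* stood first in WT at 9.09 ± 0.628, apart from *Casp1* (4.69 ± 0.953) and *Casp4* (4.69 ± 0.739), whose ranges overlapped. In TNFR2-/- St libraries *Casp1* (10.1 ± 3.28) and *Mlkl* (9.17 ± 0.281) overlapped, and *Casp4* (7.41 ± 1.23) came below *Mlkl*. *Nlrp3* had the lowest mean in all 4 groups, at 0.178 ± 0.103 in WT St, and overlapped the gene next above it in every group but TNFR2-/- St. Thus the executioner of necroptosis and the initiator caspases of pyroptosis stood among the more abundant transcripts of the group after 3 h, while *Gsdmd* (0.686 ± 0.218 in WT St) and *Ripk3* (0.513 ± 0.185) stayed low.

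**Figure D3:**
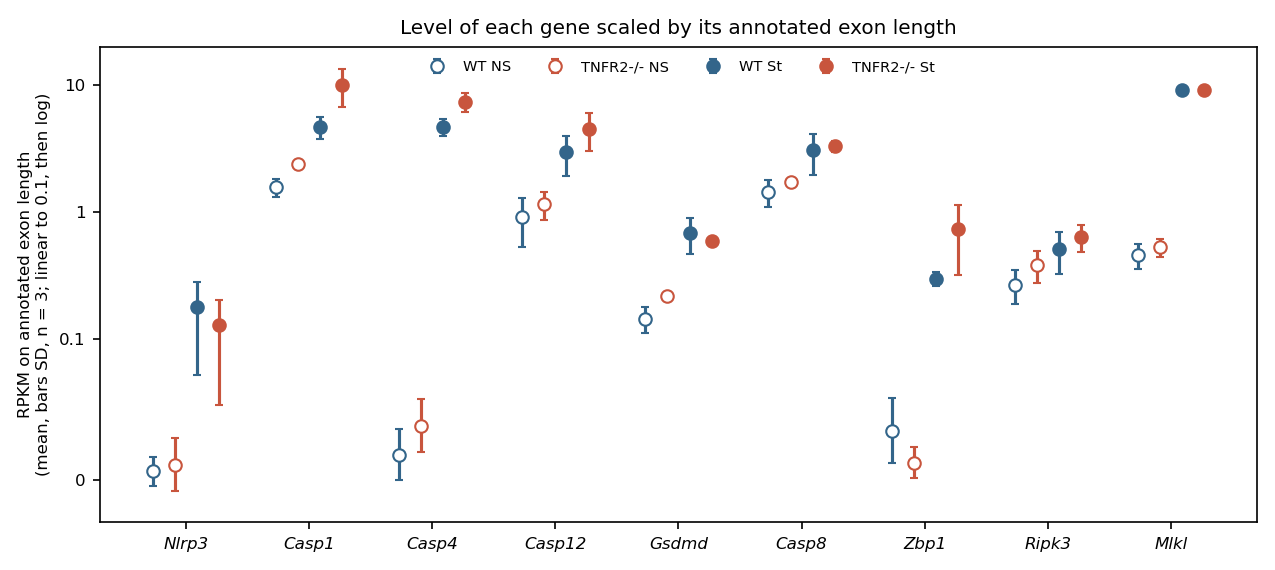
RPKM on annotated exon length for each gene (vertical axis, linear to 0.1 and logarithmic above; mean, bars SD, n = 3) in the 4 groups, open for NS and filled for St. Stimulated *Mlkl* is at 9.09 in WT and 9.17 in TNFR2-/-, and *Casp4* passes from 0.0180 to 4.69 in WT.

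Between genotypes, differences were smaller. In NS libraries no member was called different, where 2.9% of all genes were called, and the fit on read counts called none either, against 4.16% of genes. At an unadjusted p under 0.05, 1 member passed, *Casp1*, with a log2 fold change of 0.59 ± 0.22 (limma adjusted p = 0.111). All TNFR2-/- NS libraries lay above all WT NS libraries for 2 of 9 members, *Casp1* and *Gsdmd* (0.36 ± 0.17, limma adjusted p = 0.173), where 34.2% of all genes did not overlap in one direction or the other. The members' share of 2 in 9 was thus below that of all genes.

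In St libraries 1 member, *Casp1*, was called higher in TNFR2-/- than in WT, where 1.8% of all genes were called. Its reads were 447, 309 and 575 in TNFR2-/- St against 261, 187 and 186 in WT St libraries, without overlap. The log2 fold change was 1.06 ± 0.22 (2.08-fold, limma adjusted p = 0.0319). The call was lost without WT St 3 (0.98, limma adjusted p = 0.12), WT St 4 (0.98, limma adjusted p = 0.111), TNFR2-/- St 2 (1.04, limma adjusted p = 0.075) or TNFR2-/- St 5 (0.83, limma adjusted p = 0.0957). At the same fold change of 1.06 it was also lost in a fit of only the 6 St libraries (limma adjusted p = 0.0963) and with no filter on low values (limma adjusted p = 0.0556). The summed astrocyte markers were also higher in TNFR2-/-, at 2852, 2920 and 4496 CPM in St libraries 2, 4 and 5, beside 447, 309 and 575 reads of *Casp1*. TNFR2-/- NS 5 had a sum of 4529 CPM with 112 reads of *Casp1*. The part of these markers in the result was not tested.

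*Casp4* did not overlap between stimulated genotypes either, with 675 to 885 reads in TNFR2-/- St and 429 to 585 in WT St libraries, and 32.7% of all genes did not overlap in this comparison. Its log2 fold change of 0.66 ± 0.37 did not pass (limma adjusted p = 0.285), but from read counts it was 0.66 ± 0.16 and did (voom adjusted p = 0.0368), a call lost without any one of the WT St libraries, TNFR2-/- St 2 or TNFR2-/- St 5. The fit on read counts thus called 2 members, *Casp1* and *Casp4*, against 2.96% of genes. *Casp12* overlapped between genotypes, with a difference of 0.63 ± 0.39 (limma adjusted p = 0.325). *Zbp1* had a difference of 0.42 ± 0.15 (limma adjusted p = 0.12), or 1.10 ± 0.44 from read counts (voom adjusted p = 0.136, and 0.0251 without TNFR2-/- St 4). *Mlkl* had the tightest interval, with a log2 fold change of 0.01 and 95% limits of -0.21 and 0.23 on the FPKM scale. For *Gsdmd* the limits were -0.51 and 0.23, and for *Nlrp3* -0.85 and 0.35.

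**Figure D4:**
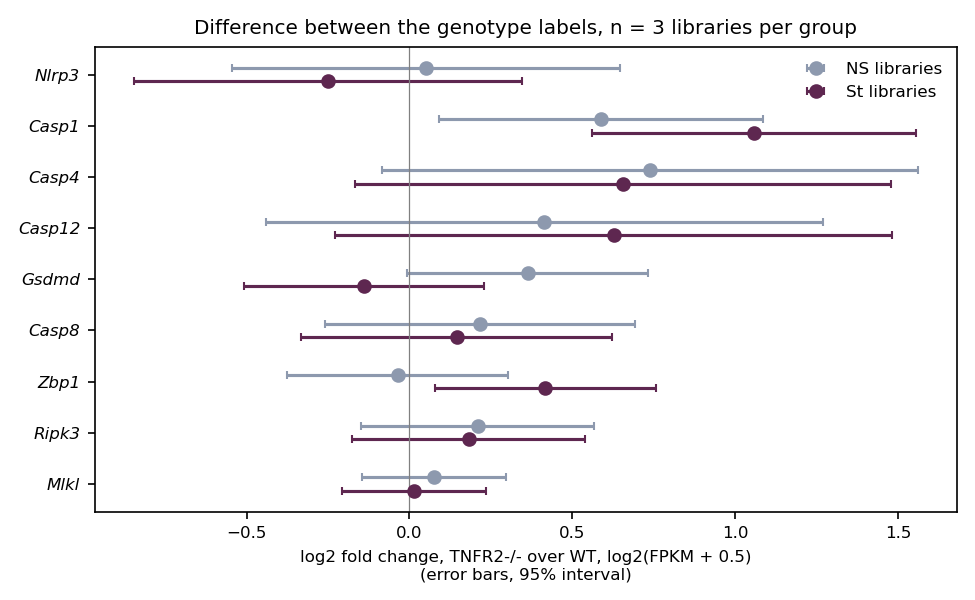
Log2 fold change of libraries labelled TNFR2-/- over WT for each gene (horizontal axis, bars 95% interval, n = 3 libraries per group), in NS and in St libraries. *Casp1* in St libraries, at 1.06 with limits of 0.56 and 1.56, is the one difference that was called.

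Whether the response to cytokines differed between genotypes was tested as an interaction, on the FPKM scale and on read counts. No member passed in either fit, none had an unadjusted p under 0.05 in limma, and 0.00553% of all genes were called. The estimates ran from -0.50 ± 0.24 for *Gsdmd*, which rose more in WT (limma adjusted p = 0.641), to 0.47 ± 0.32 for *Casp1* (limma adjusted p = 0.766). *Zbp1* was at 0.45 ± 0.22 (limma adjusted p = 0.645), and at 2.46 ± 1.20 from read counts (voom adjusted p = 0.709). For *Mlkl* the 95% limits of the interaction were -0.37 and 0.25 on the FPKM scale, where the added 0.5 FPKM equals 54.5 reads. From read counts the *Mlkl* estimate was less precise, at -0.18 ± 0.25 (voom adjusted p = 0.933).

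Genes around the group were counted by role. Of 14 other inflammasome sensors and adaptors, 10 were under a mean of 0.1 FPKM and not tested. Among them *Nlrc4* never exceeded 2 reads in a library. Counts of *Aim2* per library spanned 1 to 5 (WT NS), 7 to 11 (WT St), 6 to 15 (TNFR2-/- NS) and 10 to 24 (TNFR2-/- St). They were thus higher with stimulation in WT, without overlap, but overlapped in TNFR2-/-. *Aim2* averaged 0.0331 FPKM and *Nlrp6* 3.17, so the FPKM filter left *Aim2* out, and its response was not tested. *Pycard*, the adaptor that links NLRP3 to caspase-1, stood at 3 to 13 reads per WT NS library and 4 to 6 per WT St library, and did not pass in any comparison. Of the 4 tested, *Pycard* and *Nlrp10* averaged under 1 FPKM and could not be called. Of the 2 that could, *Nlrp6* alone was called, higher with stimulation in both genotypes. Over all genes, 4.58% were called higher in WT and 5.41% in TNFR2-/-. *Nlrp6* had 1 to 2 reads in WT NS, 14 to 16 in WT St, 3 to 7 in TNFR2-/- NS and 33 to 43 in TNFR2-/- St libraries. These groups did not overlap. All St libraries lay above all NS libraries for 13.7% of genes in WT and 12.7% in TNFR2-/-. The genotypes did not overlap for 34.2% of genes in NS and 32.7% in St libraries. Its log2 fold change was 2.22 ± 0.20 in WT (limma adjusted p = 2.89e-05) and 2.54 ± 0.20 in TNFR2-/- (limma adjusted p = 7.87e-06). *Nlrp6* was also higher in TNFR2-/- than in WT, by 0.92 ± 0.20 in NS (limma adjusted p = 0.0254) and 1.25 ± 0.20 in St libraries (limma adjusted p = 0.016), though from read counts the former did not pass (voom adjusted p = 0.0596). The shares of all genes called between genotypes were 2.9% in NS and 1.8% in St libraries. The part of the astrocyte markers, also higher in TNFR2-/-, was not tested.

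Of 12 other pyroptosis effectors and cargo, 5 were tested, and 3 of these averaged 1 FPKM or more, as a call requires. Among them 1, *Ninj1*, which ruptures the membrane at the end of lytic death, was called higher with stimulation in both genotypes. The share of all genes called higher was 4.58% in WT and 5.41% in TNFR2-/-. The log2 fold change of *Ninj1* was 1.12 ± 0.11 in WT (limma adjusted p = 4.18e-05) and 0.87 ± 0.11 in TNFR2-/- (limma adjusted p = 0.000205). The cargo of the pathway stood apart: *Il1b* had at most 1 read in any library, and *Il18* did not pass the test in WT (0.22 ± 0.13, limma adjusted p = 0.339). *Il18* held 859 to 951 reads in WT St and 707 to 788 in WT NS libraries, but its levels scaled by library total overlapped. *Pycard*, *Nlrc4*, *Aim2*, *Il1b* and *Il18* were chosen after their values were seen.

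Of 16 regulators of caspase-8 and necroptosis, all were tested and 15 averaged 1 FPKM or more. With stimulation, 8 were called higher in WT and 9 in TNFR2-/-. Over all genes, 4.58% were called higher in WT and 5.41% in TNFR2-/-. No gene of the list was called lower (2.95% of all genes were called lower in WT and 4.68% in TNFR2-/-). The median log2 fold change of the list was 0.67 in WT and 0.86 in TNFR2-/-, beside -0.05 and -0.11 over all genes tested. *Birc3*, a ubiquitin ligase that restrains RIPK1, rose by 4.75 ± 0.30 in WT (limma adjusted p = 1.51e-06) and 4.42 ± 0.30 in TNFR2-/- (limma adjusted p = 2.23e-06). *Tnfaip3*, the ubiquitin editor A20 that also limits necroptosis, rose by 4.02 ± 0.19 in WT (limma adjusted p = 1.59e-07) and 4.43 ± 0.19 in TNFR2-/- (limma adjusted p = 7.36e-08). The death receptor *Fas* rose by 2.70 ± 0.42 in WT (limma adjusted p = 0.00132) and 2.67 ± 0.42 in TNFR2-/- (limma adjusted p = 0.00107). *Ripk1*, the kinase upstream of RIPK3 and chosen after its values were seen, went from 315 to 323 reads in WT NS to 1395 to 1602 in WT St libraries (2.16 ± 0.10, limma adjusted p = 1.55e-07). No gene of this list was called between genotypes, in NS or in St libraries, where 2.9% and 1.8% of all genes were.

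Among 6 other caspases, 5 were tested. *Casp9*, the initiator of the mitochondrial route, was called lower in TNFR2-/-, from 536 to 666 reads in NS to 310 to 351 in St libraries (-0.66 ± 0.11, limma adjusted p = 0.00147). In WT it was also lower without overlap, from 443 to 502 reads to 308 to 360, and passed on p but not on the 1.5-fold threshold (-0.48 ± 0.11, limma adjusted p = 0.0141). The interaction for *Casp9* was not called (limma adjusted p = 0.831). *Casp6*, chosen after its values were seen, was lower in TNFR2-/- St than in WT St libraries without overlap, as -0.53 ± 0.09 (limma adjusted p = 0.0195). It missed the 1.5-fold threshold there, but from read counts it was -0.59 ± 0.11 and passed (voom adjusted p = 0.0144), against 2.96% of genes.

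The genes whose profile over the 12 libraries was most like that of each member were listed as a description, among 13553 tested genes averaging 1 FPKM or more. All points share the 3 h stimulation and the same libraries, so genes that rise with cytokines resemble each other. *Casp4* was most like *Cd14*, *B2m* and *Nfkb2* (Pearson r = 0.997, 0.996 and 0.996, n = 12 libraries), and *Mlkl* most like *Olfr56*, *Psmb8* and *Serpina3g* (r = 0.997 each). *Casp1* was most like *Mfsd7c* (r = 0.995), *Steap1* and *Steap2* (r = 0.985 each), and its neighbor *Casp12* like *Sox7* (0.977), *Rab20* (0.972) and *Anxa7* (0.971). For *Casp8* the genes were *Pnp* (0.965), *Vcam1* (0.961) and *Shisa5* (0.961), and for *Gsdmd* they were *St3gal4* (0.974), *Birc3* (0.970) and *Nsun4* (0.970). Between the neighbors on chromosome 9, r was 0.948 for *Casp1* and *Casp12*, 0.916 for *Casp1* and *Casp4* and 0.912 for *Casp4* and *Casp12*.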

How the data were processed

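RNA from 12 OPC libraries was measured as FPKM in a table of NS and a table of St libraries. Trimming (Trim Galore), mapping to GRCm38 under Ensembl gene models, counting per gene (STAR) and EdgeR normalization were done by the authors. The FPKM as deposited were log2-transformed here after adding 0.5. The sources differ on the sequencing platform. Of 45792 entries, 229 that share one of 99 symbols were left out. All columns of values were mapped.

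Whole reads were recovered from FPKM for 26636 of 26636 genes above 0 in at least 2 libraries (tolerance 0.02 reads), since both tables use 1 divisor per gene. Depth was 26886878 to 30335265 read pairs per library. Intervals of read ratios are exact and cover counting error only.

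A fit of 4 group means over 12 libraries used limma 3.58.1 in R 4.3.3, with a mean trend, Benjamini-Hochberg adjustment and 18081 genes averaging 0.1 FPKM or more. Calls needed an adjusted p of at most 0.05, a fold of at least 1.5 and a mean of at least 1 FPKM. On simulated data for TNFR2-/- St vs WT St (18081 genes), calls covered 78 of the 100 genes given a 2-fold and 97 of the 100 given a 4-fold change. The changed genes averaged 2 FPKM or more, and changes were added after the log2 step with normal noise. The simulation therefore does not cover *Gsdmd*, *Ripk3*, *Zbp1* and *Nlrp3*, which average less, or the shrinkage from the added 0.5 FPKM. Voom on recovered reads was the main alternative.

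The members and lists were chosen with earlier results of these data known. Outside the members, the genes named were called genes whose libraries did not overlap, up to 3 per list and direction by fold, and the 3 genes most correlated with each member with a mean of at least 1 FPKM. One result that this rule selects is not reported here.

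Same-numbered NS and St libraries of a genotype deviated together (r = 0.338 to 0.649 in 6 pairs, against -0.455 to 0.088 for other numbers, 13554 genes), so numbers were taken to pair libraries within a genotype. Between genotypes the same numbers gave r from -0.078 to 0.204. Positions and exon lengths came from GENCODE M21 and promoters from RefSeq, which gave windows for 7 of 9 members, with none for *Gsdmd* and *Zbp1*. Python 3.11.15, numpy 2.4.6, pandas 2.3.3, scipy 1.17.1 and matplotlib 3.10.9 were used.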

Additional observations from a re-analysis of the deposited data

How the results depend on the processing

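The counts of members called with stimulation, between NS genotypes and in the interaction stayed within 1.5 times of those reported on the FPKM scale under every alternative run: pseudocounts of 0.1 and 1, no filter or a filter at 1 FPKM, median-of-ratios scaling, a fit of the libraries compared, no mean trend, adjusted p alone, both forms of replicate block, voom on read counts and each library left out. The count for TNFR2-/- St vs WT St, 1 as reported, was 0 with no filter and 0 in a fit of the libraries compared. It was 2 with voom under each expression threshold (1 FPKM, at least 2 CPM or none, the last 2 chosen after seeing the data). With libraries left out in turn it ran from 0 to 3 with voom and no threshold, and from 0 to 1 on the FPKM scale. Where no value shows the cause, the cause was not tested.

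Directions turned only in differences between genotypes that had not passed. With the replicate block by number across genotypes, the log2 fold change of *Casp12* in NS libraries was -0.16, that of *Nlrp3* -0.13, and that of *Casp8* in St libraries -0.0301. The block by numbered pair within a genotype changed no call on the FPKM scale. Leaving out each library, with or without voom, gave *Nlrp3* in NS from -0.81 to 1.04. In St libraries it gave *Nlrp3* from -0.89 to 0.0135, *Casp8* from -0.0666 to 0.43, *Gsdmd* from -0.28 to 0.0879 and *Mlkl* from -0.0240 to 0.0702.

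Low counts limit *Nlrp3*, *Zbp1*, *Ripk3* and *Gsdmd*, and *Gsdmd* falls below 2 CPM. With 3 libraries per group and reads summed per gene, isoforms and the part of *Tnfrsf1b* that was read could not be examined.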
